A study of Mus musculus with 9 samples.

Results

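The PGC-1, ERR and PPAR regulators are 10 genes whose products switch on the mitochondrial and fatty acid programme of muscle. They are the coactivators Ppargc1a and Ppargc1b, the oestrogen-related receptors Esrra, Esrrb and Esrrg, the fatty acid receptors Ppara and Ppard, the transcription factor Nrf1, the mitochondrial DNA-binding factor Tfam and the muscle regulator Perm1. They were picked by gene name, and each was matched by its Ensembl identifier to 1 of the 55487 genes of the count table. All 10 had enough counts to be tested. Polyadenylated RNA of the gastrocnemius, a calf muscle, was sequenced from wild-type C57BL/6 mice (C57BL/6J in the text of the study), labelled as male, in 3 groups. The Control group (n = 4) lived in normal cages, the Unloading group (n = 2) spent 10 days with the tail suspended so that the hind legs carried no weight, and the Reloading group (n = 3) was sampled 1 day after such mice had been let down to walk again. The study's methods speak of female mice for the suspension, and an age for these mice was not given in the sources used here. The comparisons ask how expression moved with disuse and with the first day of renewed load.

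PGC-1α, the product of Ppargc1a, and PGC-1β, the product of Ppargc1b, do not bind DNA themselves. They dock on nuclear receptors such as ERRα, ERRγ and PPARα and on NRF1, and so raise the transcription of genes for respiration, the citric acid cycle and fat oxidation. NRF1 in turn drives Tfam, whose protein packages and transcribes mitochondrial DNA. Perm1 is induced by PGC-1 and ERR in striated muscle and takes part in the oxidative programme of the fibre. Endurance activity is known to raise much of this network in muscle.

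The libraries held between 9252443 and 19612101 counted read pairs. Values are given as counts per 1000000 counted (CPM), with each library's total corrected for composition by edgeR's TMM factors, and 3 counts corresponded to between 0.164 and 0.338 CPM, below every value of the 10 regulators. The lowest count of any regulator in a library was 44, for Esrrb. All 10 fast myofibre markers were detected in every group, as the muscle label calls for. Keratinocyte markers summed to 291 CPM in Control 2 and 132 CPM in Reloading 1 and to at most 4.20 CPM in the other libraries, so results were also taken without these 2 libraries. Transcripts of the mitochondrial genome made up 9.36% to 10.6% of all counts in Control, 9.61% to 10.1% in Unloading and 6.49% to 6.75% in Reloading. The labels give each library as a separate sample, and p-values measure the spread between these libraries.

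Perm1 fell in Unloading and rose in Reloading, to a level above Control, while Ppargc1a showed no detectable change. Against Control, 2 regulators were lower in Unloading (Esrra and Perm1) and 1 was higher (Nrf1), where 5.50% of all 14851 tested genes were lower and 4.40% were higher. Without Unloading 1, 1 of these 3 calls was left (Perm1). Against Unloading, 3 regulators were higher in Reloading (Ppargc1b, Esrra and Perm1), where 18.5% of all genes were higher, and 0 were lower, where 19.0% of all genes were lower. None of the 10 was lower there at an unadjusted p under 0.05 or by DESeq2 either. Against Control, 3 were higher in Reloading (Ppargc1b, Nrf1 and Perm1), beside 22.1% of all genes, and 1 was lower (Tfam), beside 21.3%. With a replicate block by description numbers 3 were lower there (Tfam, Esrra and Esrrg). Without both Control 2 and Reloading 1, 1 call was left in that comparison (Perm1), and with DESeq2 2 were left (Tfam and Perm1). The median log2 fold change of the 10 was -0.29 in Unloading against Control, 0.23 in Reloading against Unloading and -0.021 in Reloading against Control. The medians of all tested genes were -0.0038, 0.026 and 0.013. The 3 comparisons share their libraries, so their values are not independent of each other. A call means an adjusted p under 0.05 in edgeR's quasi-likelihood test over all tested genes.

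**Figure D1:**
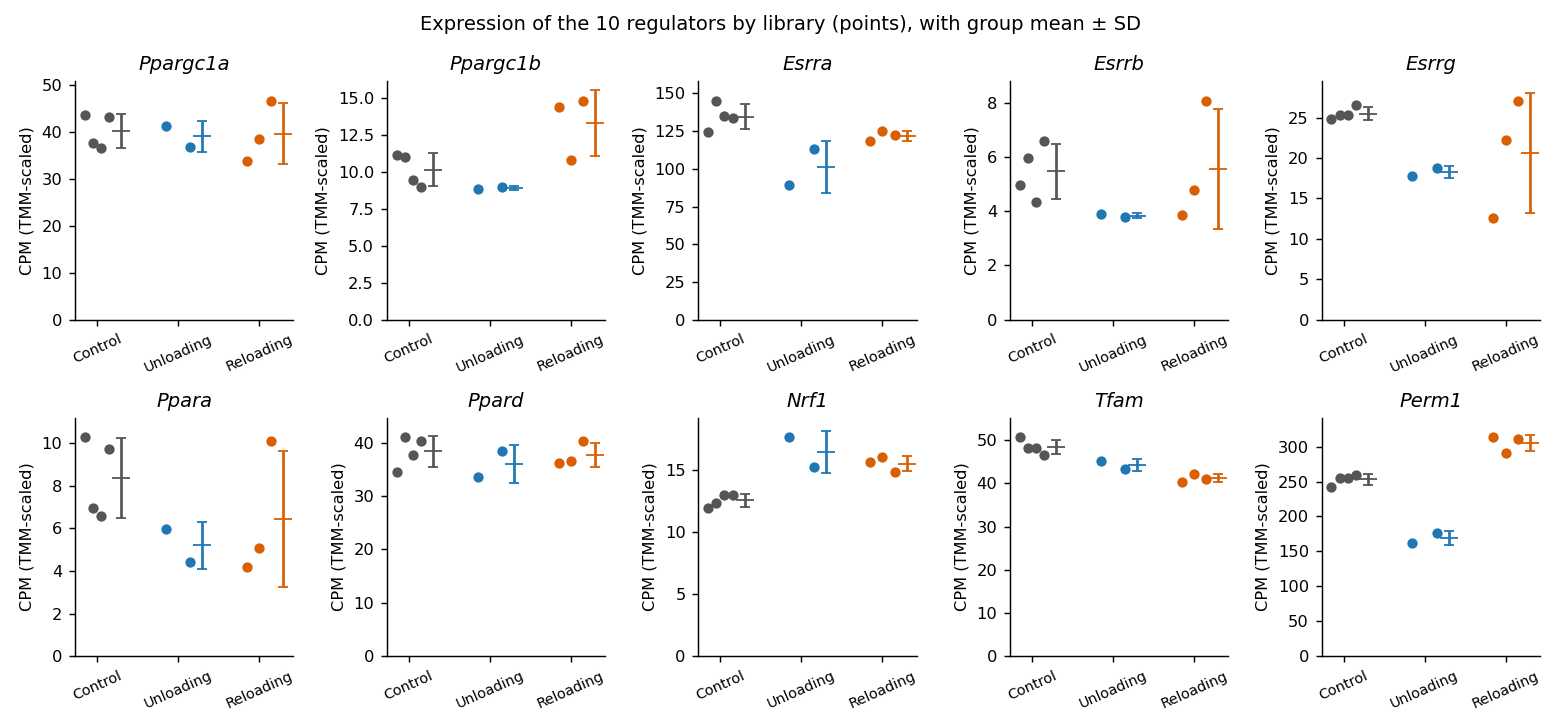
CPM of each of the 10 regulators on the vertical axis, which starts at 0, with 1 point per library in the Control, Unloading and Reloading groups and the group mean ± SD beside the points. Perm1 separates all 3 groups, with 241 to 260 CPM in Control, 163 to 176 CPM in Unloading and 291 to 313 CPM in Reloading, while the points of Ppargc1a and Ppard overlap between groups.

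The regulators covered a wide range of levels. Per kilobase of exon, Perm1 was the most abundant in Control at 64.9 ± 2.06 CPM per kb (SD, n = 4), above 96.3% of the tested genes. Esrra followed at 30.5 ± 1.91 CPM per kb and Tfam at 10.9 ± 0.368 CPM per kb. Ppargc1a reached 6.10 ± 0.550 CPM per kb, Ppard 5.11 ± 0.391 and Esrrg 4.11 ± 0.124. Ppargc1b, at 2.55 ± 0.275 CPM per kb, and Ppara, at 2.18 ± 0.489 CPM per kb, lay near the median of all tested genes, 2.51 CPM per kb. Nrf1 had 1.22 ± 0.0513 CPM per kb and Esrrb, the lowest, 0.905 ± 0.166 CPM per kb. In this order the 4 Control values of Ppargc1b and Ppara overlapped, and those of every other pair of neighbours did not. Among the ERR receptors Esrra was the most abundant and Esrrb the least abundant on this scale, and of the PGC-1 coactivators Ppargc1a was the higher.

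**Figure D2:**
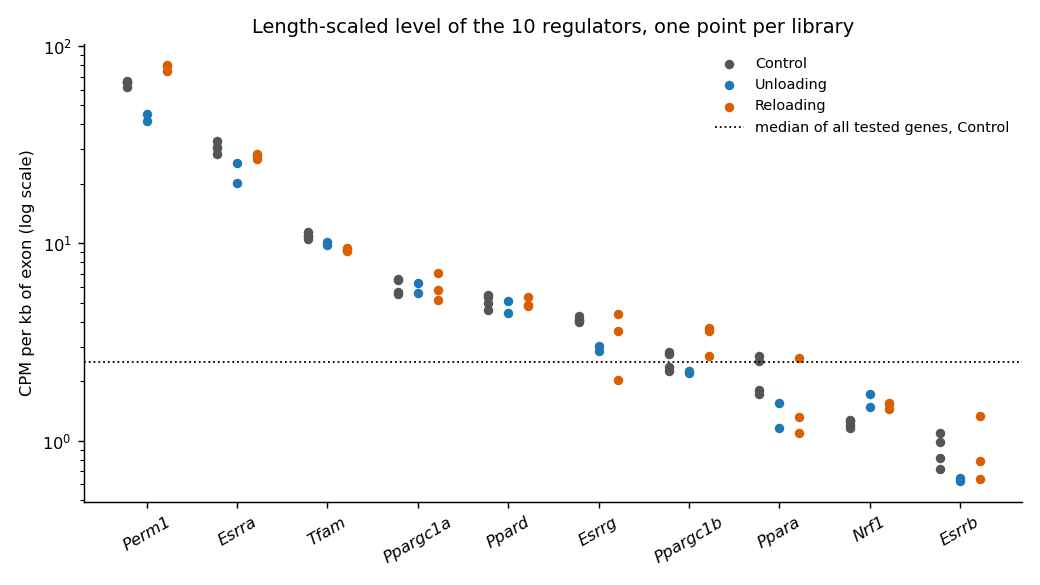
CPM per kilobase of summed exon length on a log axis for the 10 regulators, ordered by their Control mean, with 1 point per library coloured by group and a dotted line at 2.51, the Control median of all tested genes. Perm1, Esrra and Tfam lie above the other 7 genes in every library, and Nrf1 and Esrrb lie under the dotted line in every library.

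Promoter sequence is shown for Perm1 and Esrra, which were called lower in Unloading and higher in Reloading, and for Ppargc1a, which was not called in any comparison. From the RefSeq promoter table for GRCm38.p6, 14 windows for 9 of the 10 regulators were used, and none for Ppargc1b. The 250 bases before each start site were searched on both strands. Bases inside the gene as Ensembl annotates it were left out of what is printed, which removed the last 59 bases for Perm1, 32 for Esrra and 1 for Ppargc1a. The stretches lie just upstream of the first exon, at chr4:156215677-156215867 on the plus strand for Perm1, at chr19:6921841-6922058 on the minus strand for Esrra and at chr5:51567727-51567975 on the minus strand for Ppargc1a. They read 5′ to 3′ on the strand of the gene, and capitals mark the motif match in each.
Perm1: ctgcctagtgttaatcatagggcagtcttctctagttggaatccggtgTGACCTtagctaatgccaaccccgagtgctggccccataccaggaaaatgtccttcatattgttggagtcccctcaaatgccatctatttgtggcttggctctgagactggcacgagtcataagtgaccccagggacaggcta
Esrra: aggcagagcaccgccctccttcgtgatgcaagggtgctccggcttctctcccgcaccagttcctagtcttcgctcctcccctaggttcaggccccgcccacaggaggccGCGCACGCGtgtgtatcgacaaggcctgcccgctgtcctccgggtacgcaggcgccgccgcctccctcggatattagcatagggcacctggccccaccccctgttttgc
Ppargc1a: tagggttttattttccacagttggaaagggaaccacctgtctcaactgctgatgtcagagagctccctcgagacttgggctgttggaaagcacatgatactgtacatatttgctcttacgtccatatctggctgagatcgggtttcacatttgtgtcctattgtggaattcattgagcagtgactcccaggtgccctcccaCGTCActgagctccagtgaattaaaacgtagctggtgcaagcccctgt
In Perm1 the capitals are the nuclear receptor core site AGGTCA read on the opposite strand, 202 to 197 bases before the RefSeq start, a motif in 14.0% of all 32851 RefSeq promoters. In Esrra they are the NRF1 site GCGCANGCG, 141 to 133 bases before the start, a motif in 5.16% of promoters. In Ppargc1a they are the cAMP response element core TGACG on the opposite strand, 49 to 45 bases before the start, a motif in 17.8% of promoters.

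Other windows of the regulators held further matches. The Tfam window had the GABP site CCGGAAGT 47 to 40 bases before the start, a motif in 2.88% of promoters. The Ppara window had the NRF1 site on both strands, in overlapping positions 31 to 22 bases before the start, and a cAMP response element core. Cores of this kind also stood in an Esrrb window, and a MEF2 site, found in 2.92% of promoters, stood in 1 of the 4 Esrrg windows and 1 of the 2 Nrf1 windows. The ERR element TNAAGGTCA, which contains the core site and is in 1.14% of promoters, the full cAMP response element TGACGTCA, in 1.55%, and the E-box CACGTG, in 6.02%, were not among the letters of these windows. The motifs were chosen after promoters of 3 regulators had been seen, and a match describes letters and not a bound site.

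Ppargc1a (ENSMUSG00000029167, chromosome 5, 51454250 to 51567726 of GRCm38, minus strand), which encodes PGC-1α, showed no detectable change. Its level was 43.5, 37.6, 36.7 and 43.2 CPM in Control 1 to Control 4, 41.3 and 36.7 CPM in Unloading 1 and Unloading 2, and 33.9, 38.4 and 46.6 CPM in Reloading 1 to Reloading 3. The groups overlapped, and the highest and the lowest value were both in Reloading. The log2 fold change was -0.043 ± 0.12 (SE; adjusted p = 0.856) in Unloading against Control and 0.028 ± 0.12 (adjusted p = 0.875) in Reloading against Unloading. In fold terms the 95% interval ran from 0.817 to 1.15 for the first of these and from 0.852 to 1.22 for the second, so that smaller changes could not be seen at this number of mice. Reloading against Control gave -0.015 ± 0.10 (adjusted p = 0.923). Counts per gene add up all of its transcripts, so the separate promoters and isoforms of Ppargc1a, which are known to respond differently to exercise, were not resolved.

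Ppargc1b (ENSMUSG00000033871, chromosome 18, 61298136 to 61400431, minus strand), which encodes PGC-1β, rose on Reloading. It had 11.2, 11.0, 9.43 and 9.01 CPM in Control 1 to Control 4, 8.83 and 9.02 CPM in the Unloading libraries, and 14.4, 10.8 and 14.8 CPM in Reloading 1 to Reloading 3. All 3 Reloading values were above both Unloading values, and Reloading 2 lay within the Control range. Reloading against Unloading gave a log2 fold change of 0.58 ± 0.15 (edgeR, adjusted p = 0.00761), and this call was kept in 17 of 17 alternative fits. Reloading against Control gave 0.40 ± 0.13 (adjusted p = 0.0193). That second call was kept in 10 of 17 alternatives. It was lost, among others, without Control 3 (adjusted p = 0.0515), Control 4 (0.0539), Reloading 1 (0.0729) or Reloading 3 (0.0925). It was also lost with DESeq2 (0.0561) and without both Control 2 and Reloading 1. Unloading against Control gave -0.18 ± 0.15 (adjusted p = 0.481), with a 95% interval from 0.709 to 1.10 in fold. Whole muscle was sequenced, so fewer cells of a type and less RNA per cell cannot be told apart for this or any other gene here.

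Esrra (ENSMUSG00000024955, chromosome 19, 6910977 to 6921840, minus strand) encodes ERRα, a main partner of PGC-1α on respiratory chain genes. It had 125, 145, 135 and 134 CPM in Control 1 to Control 4, 89.2 and 113 CPM in Unloading 1 and Unloading 2, and 118, 125 and 122 CPM in Reloading 1 to Reloading 3. Both Unloading values were below every other library, and Reloading overlapped Control. The log2 fold change was -0.41 ± 0.093 (adjusted p = 0.0130) in Unloading against Control. Without Unloading 1, the lowest library, it was -0.25 (adjusted p = 0.265). Reloading against Unloading gave 0.27 ± 0.097 (adjusted p = 0.0420), near the threshold. This call was kept in 6 of 17 alternatives. It was lost, among others, without Control 3 (adjusted p = 0.0620), Control 4 (0.0512), Reloading 1 (0.0564), Reloading 2 (0.116) or Reloading 3 (0.0735). It was also lost with DESeq2's size factors in place of TMM (0.058) and with no filter on low counts (0.0586). Without Unloading 1 the log2 fold change was 0.10. Reloading against Control gave -0.14 ± 0.081 (adjusted p = 0.165), and with a replicate block by the numbers in the sample descriptions it passed at -0.19 ± 0.067 (adjusted p = 0.0284). Of its 4414 exon bases, 3.72% are shared with Trmt112 on the other strand or with Mir6990, and read pairs there cannot be assigned by an unstranded count. The other 9 regulators share 0 exon bases with another gene.

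Esrrg (ENSMUSG00000026610, chromosome 1, 187608791 to 188214885, plus strand) encodes ERRγ, the receptor linked to oxidative fibres. It was even in Control, with 24.8, 25.3, 25.3 and 26.6 CPM, and stood at 17.7 and 18.7 CPM in Unloading. In Reloading 1 to Reloading 3 it had 12.6, 22.2 and 27.1 CPM. Unloading lay below the whole Control range, and the Reloading values ran from below Unloading to above Control. The log2 fold change of -0.48 ± 0.19 in Unloading against Control did not pass the test (adjusted p = 0.130). It did without Reloading 1 (-0.48, adjusted p = 0.00939), a library that enters through the shared estimate of the spread. With no filter on low counts it was -0.44 and also passed (adjusted p = 0.00468). Reloading against Unloading gave 0.18 ± 0.20 (adjusted p = 0.503) and, without Reloading 1, 0.43 (adjusted p = 0.0104). Reloading against Control gave -0.30 ± 0.17 (adjusted p = 0.173) and, without Reloading 3, -0.54 (adjusted p = 0.0160). With the replicate block by description numbers this comparison passed at -0.37 ± 0.14 (adjusted p = 0.0455).

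Esrrb (ENSMUSG00000021255, chromosome 12, 86361117 to 86521628, plus strand), which encodes ERRβ, was the least abundant. Its level was 4.96, 5.97, 4.36 and 6.61 CPM in Control, 3.89 and 3.77 CPM in Unloading, and 3.87, 4.77 and 8.08 CPM in Reloading. Unloading was under every Control value, and Reloading spanned nearly the whole range. None of its 3 comparisons passed the edgeR test, with -0.51 ± 0.26 (adjusted p = 0.225) in Unloading against Control, 0.56 ± 0.27 (adjusted p = 0.113) in Reloading against Unloading and 0.044 ± 0.22 (adjusted p = 0.888) in Reloading against Control. Without Reloading 1 the value for Reloading against Unloading was 0.75 (adjusted p = 0.0341).

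Ppara (ENSMUSG00000022383, chromosome 15, 85734983 to 85802819, plus strand) encodes PPARα, which drives fat oxidation in response to fatty acids. It had 10.3, 6.96, 6.57 and 9.70 CPM in Control, 5.99 and 4.43 CPM in Unloading, and 4.19, 5.06 and 10.1 CPM in Reloading. Unloading was below every Control value, and Reloading 3 stood between the 2 highest Control values. Unloading against Control gave a log2 fold change of -0.68 ± 0.29 (adjusted p = 0.155), which passed without Reloading 3 (-0.68, adjusted p = 0.0493). With no filter on low counts it was -0.65 and also passed (adjusted p = 0.00575). Reloading against Unloading gave 0.34 ± 0.31 (adjusted p = 0.408). Reloading against Control gave -0.34 ± 0.25 (adjusted p = 0.293) and, without Reloading 3, -0.83 (adjusted p = 0.00662). Ppard (ENSMUSG00000002250, chromosome 17, 28232700 to 28301474, plus strand), which encodes the PPARδ receptor of muscle, was between 33.5 and 41.0 CPM in every library. Its groups overlapped, and the log2 fold changes were -0.092 ± 0.092, 0.065 ± 0.097 and -0.027 ± 0.082 in Unloading against Control, Reloading against Unloading and Reloading against Control (adjusted p = 0.573, 0.627 and 0.812).

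**Figure D3:**
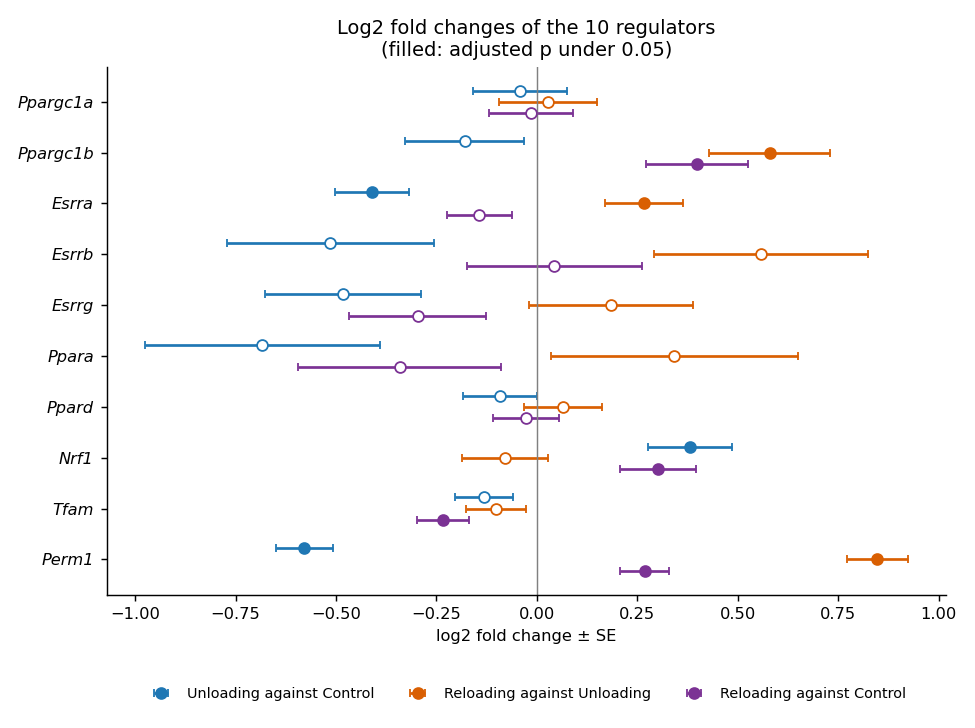
Log2 fold change ± SE of the 10 regulators on the horizontal axis for Unloading against Control, Reloading against Unloading and Reloading against Control, with filled points for an adjusted p under 0.05. The 3 values of Perm1, at -0.58, 0.85 and 0.27, are all filled, those of Ppargc1a, at -0.043, 0.028 and -0.015, are all open, and the error bars of Esrrb, Esrrg and Ppara are the longest.

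Nrf1 (ENSMUSG00000058440, chromosome 6, 30047988 to 30153458, plus strand), which encodes nuclear respiratory factor 1, was the only regulator called higher in Unloading. It had 12.0, 12.4, 13.0 and 13.0 CPM in Control, 17.7 and 15.3 CPM in Unloading, and 15.7, 16.1 and 14.9 CPM in Reloading. Every Unloading and Reloading value was above every Control value. Unloading against Control gave a log2 fold change of 0.38 ± 0.10 (adjusted p = 0.0310). The call was kept in 9 of 17 alternatives. It was lost, among others, without Control 1 (adjusted p = 0.0569), Control 2 (0.0573) or Control 3 (0.0547), and with DESeq2 (0.0690). Without Unloading 1 the log2 fold change was 0.28. Reloading against Control gave 0.30 ± 0.094 (adjusted p = 0.0174), a call kept in 14 of 17 alternatives. It was lost without Reloading 2 (adjusted p = 0.0647), with DESeq2 (0.0930) and without both Control 2 and Reloading 1. Reloading against Unloading gave -0.080 ± 0.11 (adjusted p = 0.592).

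Tfam (ENSMUSG00000003923, chromosome 10, 71225464 to 71238280, minus strand) was highest in Control and lowest in Reloading, within a narrow range. It had 50.6, 48.3, 48.3 and 46.7 CPM in Control, 45.2 and 43.3 CPM in Unloading, and 40.4, 42.2 and 41.0 CPM in Reloading. The 3 groups did not overlap. Tfam was lower in Reloading than in Control by edgeR's test, with a log2 fold change of -0.23 ± 0.064 (adjusted p = 0.00870), but when libraries were scaled by their totals alone the value was 0.0066 (adjusted p = 0.945), on a scale where the median of all genes was itself at 0.25. Without both Control 2 and Reloading 1 it was -0.22 (adjusted p = 0.0511), and with no filter on low counts it was -0.22 (adjusted p = 0.0537). Unloading against Control gave -0.13 ± 0.072 (adjusted p = 0.271) and Reloading against Unloading -0.10 ± 0.076 (adjusted p = 0.312).

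Perm1 (ENSMUSG00000078486, chromosome 4, 156215868 to 156221307, plus strand) had the largest change in each direction among the regulators called. Its level was 241, 256, 255 and 260 CPM in Control 1 to Control 4, 163 and 176 CPM in Unloading 1 and Unloading 2, and 313, 291 and 311 CPM in Reloading 1 to Reloading 3. The groups did not overlap, with Unloading lowest and Reloading highest. Unloading against Control gave a log2 fold change of -0.58 ± 0.072 (adjusted p = 0.000356), a level 0.669 times that of Control. Reloading against Unloading gave 0.85 ± 0.075 (adjusted p = 1.2e-06), or 1.80-fold, and Reloading against Control gave 0.27 ± 0.061 (adjusted p = 0.00236), or 20.5% more. All 3 calls were kept in 17 of 17 alternatives, with log2 fold changes from -0.64 to -0.52, from 0.79 to 1.10 and from 0.25 to 0.51.

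**Figure D4:**
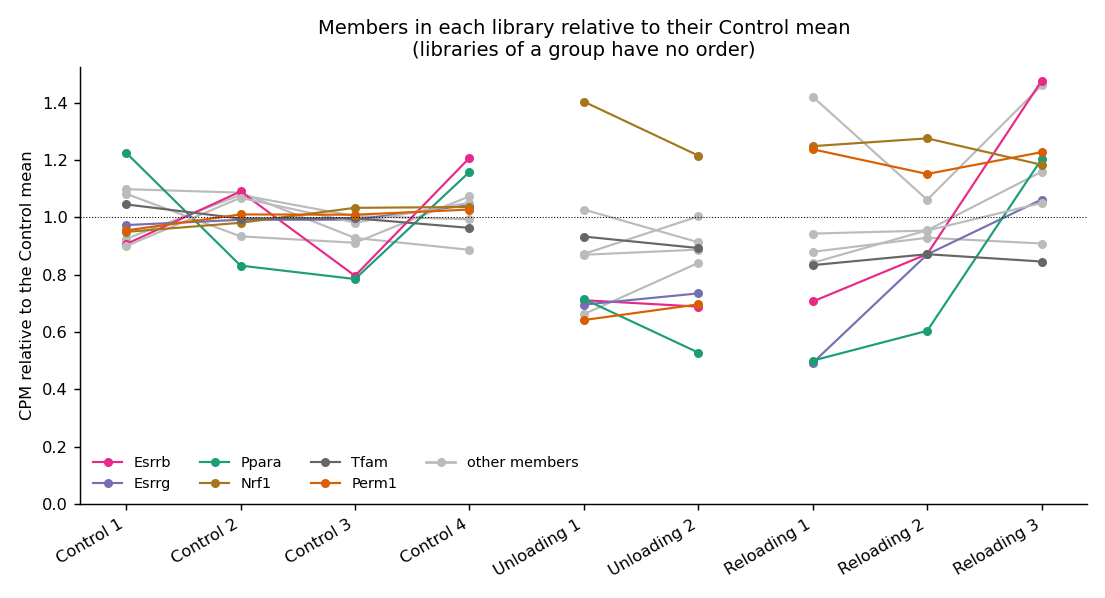
CPM of each regulator divided by its Control mean, in each of the 9 libraries, with lines joining the libraries of a group only to guide the eye. In Reloading 1 Esrrg, Ppara and Esrrb lie between 0.493 and 0.707 and in Reloading 3 between 1.06 and 1.48, while Perm1, Nrf1 and Tfam keep within narrow bands in Reloading.

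The Reloading mice differed among themselves in some regulators and not in others. The ratio of the highest to the lowest Reloading library was 2.40 for Ppara, 2.16 for Esrrg and 2.09 for Esrrb, with Reloading 3 highest and Reloading 1 lowest in each. It was 1.07 for Perm1, 1.05 for Tfam and 1.08 for Nrf1. Of the 10 regulators, 6 were highest in Reloading 3 and 7 were lowest in Reloading 1. In Control the same ratio was 1.56 for Ppara, 1.07 for Esrrg and 1.52 for Esrrb. Myh2, the myosin of fast oxidative fibres, had 971 CPM in Reloading 1, 939 in Reloading 2 and 1662 in Reloading 3, beside 1928 to 2291 CPM in Control. The PPAR target Pdk4, which restrains glucose oxidation, went the other way at 1071, 1043 and 532 CPM. These companion genes were chosen after their values were seen, Reloading 1 also held the keratinocyte transcripts, and the part of either in the spread was not tested.

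Some genes followed a regulator closely over the 9 libraries. Likeness was the root mean square difference of log2 CPM centred per gene, among 7985 genes, and it is a description of libraries that share 3 groups. Nearest to Perm1 were AI506816 (0.0846), Grk3 (0.102) and Slc6a8 (0.108), the last encoding the creatine transporter, beside a median of 0.380 over all genes compared. Nearest to Esrra were Mrpl12 (0.0378), a mitochondrial ribosomal protein gene, Slc25a20 (0.0588), which encodes the carnitine-acylcarnitine carrier, and Apbb2 (0.0635), beside a median of 0.278. Nearest to Nrf1 were Slc6a6 (0.0490), the taurine transporter gene, Gpkow (0.0573) and Pan3 (0.0601). Nearest to Tfam were Rps6ka2 (0.0413), Grsf1 (0.0469), whose protein binds mitochondrial RNA, and Dhrs7b (0.0478). Nearest to Ppargc1b were Snap47 (0.111), Heatr5a (0.111) and Ttyh2 (0.116).

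The known targets of PGC-1 and ERR were mostly lower in Unloading. Of 28 listed genes of respiration and the oxidative fibre, 17 were lower in Unloading against Control (median log2 fold change -0.29), beside 5.50% of all genes, but 5 were lower without Unloading 1. Ckmt2, the mitochondrial creatine kinase of muscle, fell from 943 ± 72.1 CPM (SD, n = 4) to 502 ± 80.5 CPM (SD, n = 2), a log2 fold change of -0.91 ± 0.097 (adjusted p = 0.000133). Cox7a1, a muscle subunit of cytochrome c oxidase, fell by 0.71 on the log2 scale and Fndc5, the irisin precursor gene, by 0.70 (adjusted p = 0.000837 and 0.000358). By edgeR 0 were called higher, by DESeq2 also 0, and 0 were higher at an unadjusted p under 0.05.

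On Reloading the targets did not follow Perm1 and Ppargc1b upward as a group. Against Unloading 17 of the 28 were lower and 2 were higher (median -0.25) with TMM, beside 19.0% and 18.5% of all genes, but 2 were lower and 4 higher (median 0.00086) with library totals alone, on a scale where the median of all genes was 0.27, and 9 were lower and 2 higher with TMM without Unloading 2. The 2 higher were Vegfa, the vascular growth factor, at 155 ± 24.8 CPM in Unloading and 243 ± 14.2 CPM in Reloading (log2 fold change 0.65 ± 0.11, adjusted p = 0.000245), and Ckmt2 (0.27 ± 0.099, adjusted p = 0.0398). Mb, the myoglobin gene, went from 1239 ± 207 to 641 ± 79.9 CPM (log2 fold change -0.95 ± 0.11, adjusted p = 1.62e-05), and Vdac1, a channel of the outer mitochondrial membrane, had a log2 fold change of -0.58 ± 0.073 (adjusted p = 2.81e-05). Against Control 25 of the 28 were lower in Reloading with TMM (median -0.58), beside 21.3% of all genes, and with library totals alone 23 were lower and 2 higher (median -0.34). Ldhb, the heart-type lactate dehydrogenase gene, fell by 0.93 on the log2 scale there, Fndc5 by 1.18 and Mb by 1.40. Of the 10 fast myofibre markers, 8 were also lower in Reloading against Control and 0 higher, beside the same 21.3% of all genes lower. Whether the changes of the targets differ from those of these markers or of Perm1 was not tested.

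Targets of the PPAR receptors were counted in the same way. In Unloading against Control 8 of 27 tested genes were lower (median -0.26), beside 5.50% of all genes, among them the fatty acid binding protein gene Fabp3 (-0.79 ± 0.15, adjusted p = 0.00544), the lipoprotein lipase gene Lpl (-0.55 ± 0.091, adjusted p = 0.00275) and the lipid droplet gene Plin2 (-0.51 ± 0.13, adjusted p = 0.0201). Without Unloading 1, 1 was lower. By edgeR and by DESeq2 0 were higher, and 3 were at an unadjusted p under 0.05. In Reloading against Unloading 4 were higher and 9 lower (median -0.12) with TMM, beside 18.5% and 19.0% of all genes, and 8 higher and 4 lower (median 0.12) with library totals alone. The higher genes included Angptl4, an inhibitor of lipoprotein lipase, at 2.12 ± 0.289 CPM in Unloading and 7.17 ± 2.38 CPM in Reloading (log2 fold change 1.76 ± 0.29, adjusted p = 0.000288), Acsl1 (0.59 ± 0.080, adjusted p = 5.00e-05) and Plin2 (0.54 ± 0.13, adjusted p = 0.00471). The fatty acid transporter gene Cd36 fell by 0.64, Lpl by 0.61 and Acadm, a dehydrogenase of fat oxidation, by 0.48. In Reloading against Control 4 were higher and 15 lower (median -0.31) with TMM, beside 22.1% and 21.3% of all genes, and 5 higher and 11 lower (median -0.073) with library totals alone. Pdk4 was 1.12 ± 0.19 higher there (adjusted p = 0.000217), and Lpl, Decr1 and Ehhadh fell by 1.16, 0.82 and 0.76.

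**Figure D5:**
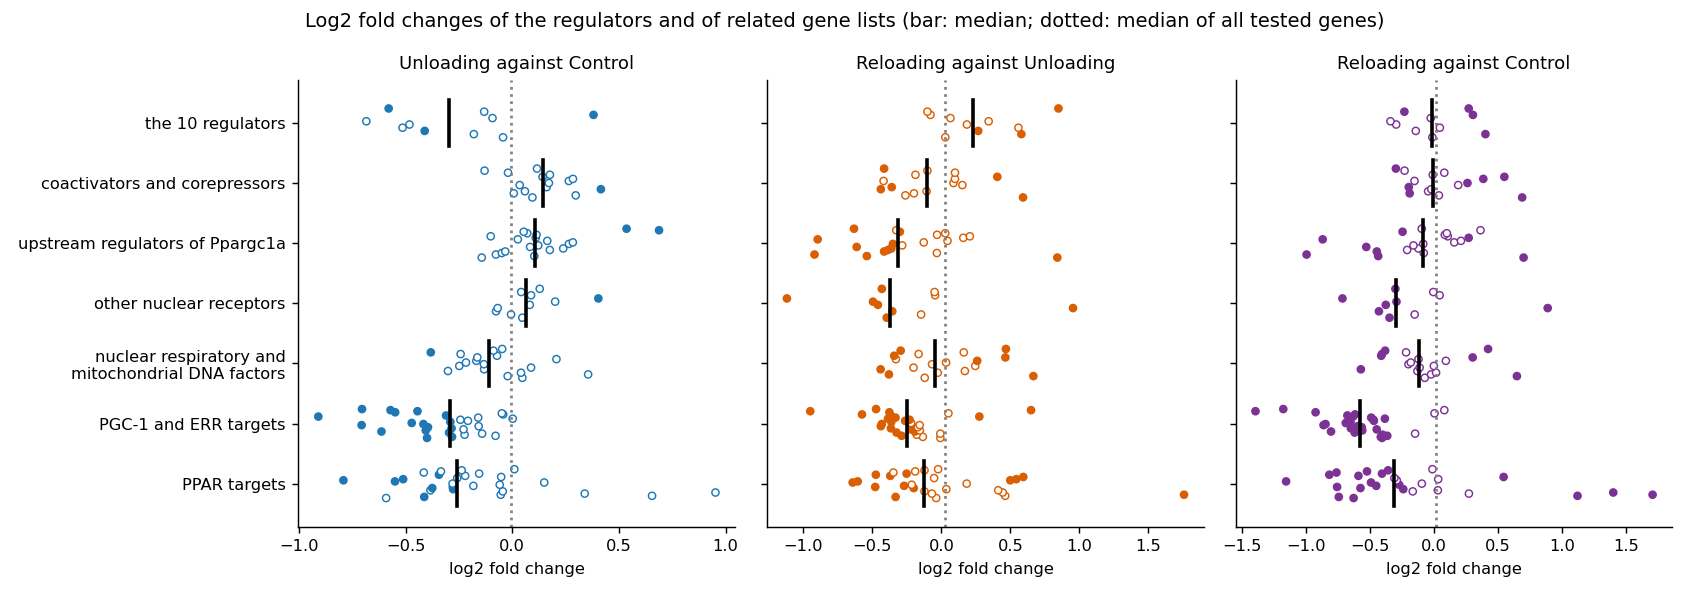
Log2 fold changes of the 10 regulators and of the tested genes of 6 related lists, 1 panel per comparison and 1 point per gene, filled for an adjusted p under 0.05, with a bar at the median of each list and a dotted line at the median of all tested genes. With TMM scaling the median bar of the PGC-1 and ERR targets lies left of the dotted line in all 3 panels, at -0.29, -0.25 and -0.58, while the 10 regulators have medians of -0.29, 0.23 and -0.021.

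Enzymes and factors that act on Ppargc1a were also measured. Of 20 such genes 2 were higher in Unloading against Control, among them the repressor gene Bhlhe40 (0.54 ± 0.092, adjusted p = 0.00319), beside 4.40% of all genes, and without Unloading 1 there was 1. In Reloading against Unloading 10 were lower and 1 higher (median -0.31) with TMM, beside 19.0% and 18.5% of all genes, and 5 lower and 5 higher (median -0.066) with library totals alone. Without Unloading 1, 6 were lower and 1 higher. Prkag3, an AMP-activated kinase subunit of fast fibres, had 273 ± 24.5 CPM in Unloading and 144 ± 14.5 CPM in Reloading (-0.92 ± 0.095, adjusted p = 5.34e-06), and Mef2c, a factor that acts at the Ppargc1a promoter, had 723 ± 14.3 and 388 ± 39.4 CPM (-0.90 ± 0.087, adjusted p = 2.88e-06). Prkaa1, a catalytic subunit of the same kinase, was higher at 26.0 ± 1.60 against 14.6 ± 1.34 CPM (0.84 ± 0.11, adjusted p = 5.05e-05). The more abundant catalytic subunit gene Prkaa2 went the other way, at 450 ± 52.8 CPM in Unloading and 309 ± 28.0 CPM in Reloading (-0.54 ± 0.11, adjusted p = 0.00159). It was also lower in Reloading than in Control (-0.44 ± 0.096, adjusted p = 0.00181). In Reloading against Control 6 were lower, among them the calcineurin gene Ppp3cb (-0.53 ± 0.076, adjusted p = 5.41e-05), and 2 higher, Prkaa1 and Mef2d (0.27 ± 0.072, adjusted p = 0.00688), beside 21.3% and 22.1% of all genes. With library totals alone the split in this comparison was 4 lower and 8 higher.

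Of 15 other coactivators and corepressors 10 were not called in Reloading against Unloading, where 2 were higher and 3 lower with TMM, beside 18.5% and 19.0% of all genes. Pprc1, the third gene of the PGC-1 family, was higher in Reloading than in Unloading, at 30.3 ± 2.55 against 20.1 ± 0.594 CPM (log2 fold change 0.59 ± 0.11, adjusted p = 0.000526), and so was the corepressor gene Mybbp1a (0.40 ± 0.081, adjusted p = 0.00119). The acetyltransferase genes Crebbp and Ep300 and the deacetylase gene Hdac3 were lower there, with log2 fold changes of -0.44, -0.36 and -0.42, and Crebbp was the 1 gene of 15 called higher in Unloading against Control (0.42 ± 0.074, adjusted p = 0.00377), where 2 were called without Control 1, Reloading 1 or Reloading 3 and none without Unloading 1. With library totals alone 6 of the 15 were called in Reloading against Unloading, each of them higher. In Reloading against Control 4 were higher, with Pprc1, Mybbp1a and Lpin1 (0.38 ± 0.095, adjusted p = 0.00432) leading, and 3 lower, beside 22.1% and 21.3% of all genes, and with totals alone 9 were called, each of them higher. Without Control 1, Control 3 or Reloading 1 that comparison gave 3 higher and 1 lower.

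Of 10 other nuclear receptors 6 were lower in Reloading than in Unloading and 1 higher with TMM (median -0.38), beside 19.0% and 18.5% of all genes, and 2 were lower and 2 higher with library totals alone (median -0.13). Rora, a receptor tied to lipid metabolism and the clock, had 218 ± 13.6 CPM in Unloading and 100 ± 10.2 CPM in Reloading (log2 fold change -1.12 ± 0.13, adjusted p = 1.32e-05), and the thyroid hormone receptor genes Thrb and Thra fell by 0.50 and 0.46. Pparg, the adipocyte member of the PPAR family, was the higher gene, at 2.03 ± 0.626 and 3.85 ± 0.519 CPM (0.95 ± 0.33, adjusted p = 0.0344). Without Unloading 2, 4 were called, each of them lower. In Reloading against Control 6 were lower, with Rora, Rxrg and Thra leading at -0.72, -0.43 and -0.38, and 1 higher, Pparg at 0.89 ± 0.28 (adjusted p = 0.0190), beside 21.3% and 22.1% of all genes, and without Reloading 3, 4 were called, each of them lower. With library totals alone 1 was lower and 3 higher. In Unloading against Control Rora was the 1 gene called (0.40 ± 0.12, adjusted p = 0.0494), a call close to the threshold, and none was called without Control 2, Control 3, Unloading 1, Unloading 2, Reloading 2 or Reloading 3, with library totals alone or with a robust fit.

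Among 18 tested nuclear respiratory and mitochondrial DNA factors other than Nrf1 and Tfam, 4 were higher and 4 lower in Reloading against Unloading with TMM (median -0.048), beside 18.5% and 19.0% of all genes, and 7 were called, each of them higher, with library totals alone (median 0.20). The higher genes were led by Gabpb1, a subunit of GABP (0.67 ± 0.14, adjusted p = 0.00222), Atad3a (0.47 ± 0.095, adjusted p = 0.00136) and Twnk, the mitochondrial DNA helicase gene (0.46 ± 0.082, adjusted p = 0.000487). The lower genes were led by Tfb2m, which starts transcription of mitochondrial DNA (-0.44 ± 0.10, adjusted p = 0.00297), Gabpb2 (-0.38 ± 0.14, adjusted p = 0.0447) and Ssbp1 (-0.34 ± 0.11, adjusted p = 0.0292). Without Unloading 1 there were 3 higher and 2 lower, and without Reloading 2 there were 4 and 1. In Reloading against Control 3 were higher and 4 lower, beside 22.1% and 21.3% of all genes, including Top1mt at -0.41 ± 0.097 (adjusted p = 0.00316), and Tfb2m fell by 0.57 on the log2 scale, while with library totals alone 5 were higher and 1 lower. In Unloading against Control Mgme1, of mitochondrial DNA maintenance, was the 1 gene called (-0.38 ± 0.10, adjusted p = 0.0321), and none was called by DESeq2 or without Control 1, Control 2, Control 3 or Unloading 1.

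Markers of the cell types in muscle moved with the groups as well. The 9 slow and oxidative myofibre markers summed to 2999 to 3679 CPM in Control, 1920 to 2232 CPM in Unloading and 1585 to 2348 CPM in Reloading. Most of this sum was Myh2, at 2155 ± 160, 1134 ± 97.5 and 1191 ± 409 CPM in these groups. In Unloading against Control 3 markers were lower (Myh2, Myl2 and Myl3), beside 5.50% of all genes. Not called there were Tnni1 and Tnnc1, at -0.45 and -0.11, and Myh7, Tnnt1, Atp2a2 and Tpm3, at 0.13, 0.056, 0.097 and 0.15. The 10 fast myofibre markers summed to 203200 to 220300 CPM in Control, 219500 to 223400 CPM in Unloading and 148900 to 163100 CPM in Reloading. Of these, 9 were lower in Reloading than in Unloading, beside 19.0% of all genes, and 8 lower than in Control, beside 21.3%. The 8 endothelium markers summed to 164 to 208 CPM in Control, 170 CPM in both Unloading libraries and 302 to 372 CPM in Reloading. There 7 were higher than in Unloading, beside 18.5% of all genes. The 9 macrophage markers summed to 66.3 to 80.5, 68.3 to 69.3 and 145 to 163 CPM in the 3 groups in the same order. Cd68 alone had 3.05 ± 0.763 CPM in Unloading and 45.9 ± 3.99 CPM in Reloading. Of the 9, 8 were higher in Reloading than in Unloading and 0 lower, beside 18.5% and 19.0% of all genes. The 6 smooth muscle markers summed to 120 to 146, 108 to 109 and 177 to 199 CPM. Calls of markers were made with TMM only, not with library totals alone. No marker of these lists was at 0 in any group, and their part in the values of the regulators and their targets was not tested.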

How the data were processed

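Gastrocnemius RNA of 9 mice was analysed. The authors aligned reads with STAR 2.7.3a to GRCm38.p6 and deposited raw counts of read pairs per gene from featureCounts 2.0.3, unstranded, on Ensembl release 102, with the summed exon length of each gene. Per the labels the libraries were paired, while the methods describe single reads. The authors' DESeq2 tables hold their own fold changes and p-values. Only the gene symbols of 1 table were used, with a reference table for the rest.

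The tests used edgeR 4.0.16 in R 4.3.3. filterByExpr (minimum count 10, minimum total 15) kept 14851 genes, libraries were scaled by TMM, and all 9 entered 1 quasi-likelihood fit with group as the only term. Tests were two-sided, with Benjamini-Hochberg adjustment within each comparison and a threshold of 0.05. SE were derived from the F statistic, and log2 CPM used a prior count of 2. CPM of a library is its count over its TMM-scaled total, and CPM per kb divides by exon length. Intervals are 95% from the same fit. DESeq2 1.42.0, other scalings, no filter, a robust fit, left-out libraries and replicate blocks were alternatives. The replicate numbers in the descriptions met the rule for pairing (every correlation of same-numbered deviations over 0.1) between Control and Reloading, in 3 pairs with r of 0.143 to 0.361. The highest was that of Control 2 and Reloading 1, both with keratinocyte transcripts. The numbers did not meet it elsewhere, nor did those in the titles. The code was tested on simulated data.

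Text names all 10 regulators, up to 3 higher and 3 lower called genes with the largest change per list and comparison, and the 3 nearest profiles of each called regulator. Prkaa2 is named outside this rule, beside Prkaa1. Some list genes that this rule names are not reported here. The regulators and lists were chosen with earlier results of these data known. Of 192 list symbols all were matched.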

Additional observations from a re-analysis of the deposited data

How the results depend on the processing

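Of 17 alternatives, the calls of Perm1 in all 3 comparisons and of Ppargc1b in Reloading against Unloading were kept in 17. Library totals alone moved the median of all genes to 0.27 in Reloading against Unloading (5250 genes higher and 1090 lower, from 2743 and 2819) and to 0.25 in Reloading against Control (6028 and 1484, from 3287 and 3169). In that scaling 5 regulators were called in Reloading against Unloading, Nrf1 was at 0.17 and Tfam at 0.15, and in Reloading against Control Ppargc1a was at 0.22, Esrra at 0.096, Ppard at 0.21 and Tfam at 0.0066, all with the sign turned. With no filter on low counts 5 regulators were called in Unloading against Control, with Esrrg and Ppara added. Ppargc1a was then at -0.00014 in Reloading against Unloading. With DESeq2 this value was -0.00063, and 2 regulators were called in Reloading against Control. Without both Control 2 and Reloading 1, 1 regulator was called in Reloading against Control, where Ppargc1a was at 0.052 and Ppard at 0.031. Why calls changed was not tested.

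Leaving out each library in turn gave 1 to 4 called regulators in Unloading against Control, 2 to 4 in Reloading against Unloading and 3 to 5 in Reloading against Control. Without Unloading 1, which leaves a lone Unloading library assumed to vary like the other groups, 65 genes were higher and 56 lower in Unloading against Control, from 653 and 817. The ranges that crossed 0 in Unloading against Control were -0.12 to 0.041 for Ppargc1a and -0.20 to 0.0045 for Ppard. In Reloading against Unloading they were -0.10 to 0.13 for Ppargc1a, -0.061 to 0.43 for Esrrg, -0.15 to 0.57 for Ppara, -0.034 to 0.16 for Ppard and -0.19 to 0.018 for Nrf1. In Reloading against Control they were -0.15 to 0.086 for Ppargc1a, -0.33 to 0.24 for Esrrb and -0.076 to 0.0021 for Ppard.

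The replicate numbers of titles and descriptions differ in Reloading. Deviations from group means correlated at -0.20 to 0.075 over 7 same-numbered pairs by title and at 0.017 to 0.36 over 6 by description, where the 3 over 0.1 were the 3 pairs of Control and Reloading. With a replicate block by title numbers 2, 3 and 3 regulators were called in Unloading against Control, Reloading against Unloading and Reloading against Control. Ppargc1a was then at 0.035, -0.017 and 0.018 and Ppard at 0.00072 in the last. With a replicate block by description numbers 2, 2 and 6 were called, the last with Esrra and Esrrg added and no call lost. In Reloading against Unloading Esrrg was then at -0.080 and Ppard at -0.032, and in Reloading against Control Ppargc1a was at 0.0030 and Esrrb at -0.027.

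The totals of the regulators over the 9 libraries ran from 611 counts for Esrrb and 815 for Ppara, the 2 with the largest SE, to 29829 for Perm1. The 2 Unloading mice limit the comparisons with Unloading.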

Other observations

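Cell types with few markers in the report were also measured. The 4 Schwann cell markers summed to 19.0 to 37.7 CPM in Control, 25.0 to 32.4 CPM in Unloading and 63.6 to 89.1 CPM in Reloading. There 3 of 4 were higher than in Unloading and 3 of 4 higher than in Control, beside 18.5% and 22.1% of all genes. The 6 fibroblast markers summed to 456 to 716 CPM, 559 to 570 CPM and 617 to 817 CPM in the same order. Of the 6, 2 were higher and 2 lower in Reloading against Unloading, beside 18.5% and 19.0% of all genes. The 5 adipocyte markers summed to 39.8 to 113 CPM in Control, 70.9 to 89.8 CPM in Unloading and 104 to 124 CPM in Reloading. Of these, 1 was higher in Reloading against Unloading (Cidec) and a different 1 in Reloading against Control (Cfd), beside 18.5% and 22.1% of all genes. The 5 erythrocyte markers summed to 52.0 to 173 CPM in Control, 67.3 to 120 CPM in Unloading and 57.3 to 139 CPM in Reloading, and the 4 satellite cell markers to 10.0 to 13.3, 11.2 to 15.5 and 10.3 to 12.7 CPM.

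The PPAR target Angptl4 varied among the Reloading mice, with 9.35, 7.52 and 4.64 CPM in Reloading 1 to Reloading 3. As in Pdk4, Reloading 3 was the lowest, the library where Ppara was highest. The slow and oxidative marker sum was 1585, 1637 and 2348 CPM in the same libraries. Most of it was Myh2, at 971, 939 and 1662 CPM, so the sum adds little to the Myh2 values given above. These genes and sums were chosen after their values were seen, and with 3 mice no relation was tested.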
